A study of Mus musculus with 5 samples.

Results

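The peaks described here are those that lie near the distal telomeric ends of the mouse autosomes in γH2AX ChIP-seq of primary mouse embryonic fibroblasts with 4 different Rb genotypes. They were taken from the 4 lists of peaks that the authors deposited, 1 list for each ChIP library. A peak on chromosomes 1 to 19 was counted as distal when its end lay within 10 Mb of the highest peak end of that chromosome over the 4 lists together. This gave 946 distal peaks out of 10720 autosomal peaks and 11254 peaks in all, of which 305 were from Rb+/+, 346 from RbΔL/+, 160 from RbΔL/ΔL and 135 from Rb-/-. The remaining 9774 peaks of the same autosomes served as the background.

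The cells were proliferating fibroblasts at passage 4, and all 4 ChIP libraries were made with 1 γH2AX antibody. Rb+/+ cells carry the normal gene for the retinoblastoma protein, which is missing from Rb-/- cells. The ΔL allele, present once in RbΔL/+ and on both copies in RbΔL/ΔL, is altered in the cleft through which the protein binds partners with an LXCXE motif. An input library of DNA without immunoprecipitation has no peak list, and its genotype is not in the labels, nor are the strain, the age of the embryos and whether embryos were pooled. The title of the series ties a complex of RB, E2F1 and condensin II to replication stress. The lists hold positions and no expression, so the fibroblast label was not checked against marker genes.

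γH2AX is the phosphorylated form of the histone variant H2AX, and it spreads over chromatin around broken DNA and stalled replication forks. Mouse autosomes have their centromere at one tip, where the coordinates start, and a long arm that runs to the distal telomere. Telomeres and the DNA next to them are known as places where replication forks slow down, and telomeres that have lost their protective cap gain γH2AX. The telomere repeat itself cannot be placed at a single position with short reads, so the windows describe the arm beside the telomere and not the telomere.

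The deposited read counts, summed over 12 classes, totalled between 13731924 in RbΔL/+ and 17896985 in Rb+/+. The library with the lowest total thus had the most distal peaks. These totals were not checked against the reads that went into the peak calls. There was 1 library per genotype, so differences between genotypes have no replicate check. The 95% intervals given below treat each peak as an independent count and cover counting error only. The number of the sample that each list carries in its name is not the number the labels give that sample, and all genotypes below rest on the sample with which each list was deposited.

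Distal peaks were somewhat denser than peaks on the rest of the autosomes in all 4 libraries, and only in RbΔL/+ did the counting interval of the ratio lie above 1. The windows held 190 Mb, which is 7.91% of the span between the lowest and highest peak coordinates of the autosomes. They held 8.45% of the autosomal peaks for Rb+/+ (7.56 to 9.41), 9.37% for RbΔL/+ (8.45 to 10.4), 8.54% for RbΔL/ΔL (7.31 to 9.90) and 8.73% for Rb-/- (7.37 to 10.3).

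In Rb+/+ there were 1.61 distal peaks per Mb against 1.49 on the rest, a ratio of 1.08 (0.956 to 1.21). In RbΔL/+ there were 1.82 per Mb against 1.51, a ratio of 1.21 (1.08 to 1.35). In RbΔL/ΔL there were 0.842 per Mb against 0.774, a ratio of 1.09 (0.925 to 1.28). The remaining library, Rb-/-, had 0.711 per Mb against 0.637, a ratio of 1.11 (0.934 to 1.33). The ratio was thus above 1 in 4 of 4 libraries, with a geometric mean of 1.12 and an SD of 0.0586 between libraries. An exact two-sided sign-flip permutation test of the 4 log ratios gave p = 0.13, the smallest p that 4 libraries allow, so this design cannot pass 0.05.

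**Figure D1:**
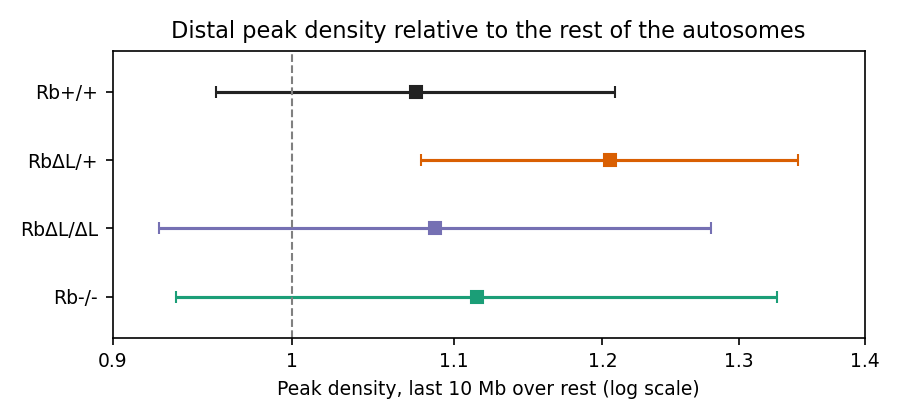
Ratio of γH2AX peak density in the last 10 Mb of the 19 autosomes to that on the rest of the same autosomes, on a log axis. Squares are the value of each library, bars are 95% counting intervals and the dashed line marks equal density. All 4 ratios lie above 1, from 1.08 in Rb+/+ to 1.21 in RbΔL/+, and only the RbΔL/+ bar does not reach 1.

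The ratio was also taken over the stronger peaks alone. The authors gave every peak a score, read here as one that grows as the p-value shrinks. It is used within a list, except where distal shares at a score of at least 100 are set against Rb+/+ in the closing sections. When peaks scoring below 100 were left out, the density ratio was 1.14 for Rb+/+ (0.891 to 1.46), 0.708 for RbΔL/+ (0.361 to 1.39), 0.647 for RbΔL/ΔL (0.0864 to 4.85) and 0.946 for Rb-/- (0.717 to 1.25). In RbΔL/+ the value was thus below 1 among its strongest peaks, of which 9 were distal, with an interval that included both 1 and the 1.21 of the whole list. Among the 1546 highest-scoring autosomal peaks of RbΔL/+ the ratio was 1.22 (1.03 to 1.45). The end was also set at the highest peak of each library itself, and those end-defining peaks were left out because their place in the window is given. The ratios were then 1.07 for Rb+/+ (0.947 to 1.20), 1.19 for RbΔL/+ (1.07 to 1.34), 1.12 for RbΔL/ΔL (0.953 to 1.31) and 1.10 for Rb-/- (0.920 to 1.31).

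No difference in distal share between a mutant library and Rb+/+ exceeded counting error at 10 Mb. Relative to the Rb+/+ library, the distal share of autosomal peaks was 1.11 times as large for RbΔL/+ (0.958 to 1.28), 1.01 times for RbΔL/ΔL (0.841 to 1.21) and 1.03 times for Rb-/- (0.851 to 1.25). All 3 intervals include 1, and all 3 ratios share the Rb+/+ library and its counting error. These intervals still allow a share up to 1.28 times that of Rb+/+, so equality is not shown. With windows of 20 Mb the RbΔL/+ value was again 1.11, and its interval of 1.004 to 1.23 then lay just above 1. RbΔL/ΔL and Rb-/- had fewer distal peaks per Mb than Rb+/+ and RbΔL/+, and their lists were shorter to a similar degree on the rest of the autosomes.

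In each library the interval of the last 5 Mb overlapped those of all bins of 5 Mb further in, up to 40 Mb. In RbΔL/+ the density went from 1.86 peaks per Mb (1.60 to 2.16) in the last 5 Mb to 1.78 between 5 and 10 Mb, 1.76 between 10 and 15 Mb and 1.44 (1.21 to 1.70) between 35 and 40 Mb. The values were lower further in, and neighbouring bins overlapped in their intervals. In Rb+/+ the last 5 Mb had 1.54 per Mb (1.30 to 1.81), below the 1.67 of the next 5 Mb and the 1.73 found between 35 and 40 Mb. In Rb-/- the last 5 Mb had 0.800 per Mb (0.630 to 1.00), above the 0.621 of the next 5 Mb. Further in, Rb-/- had 0.537 between 20 and 25 Mb, 0.505 (0.373 to 0.670) between 25 and 30 Mb and 0.589 between 35 and 40 Mb. RbΔL/ΔL had 0.916 (0.734 to 1.13) in the last 5 Mb, 0.768 in the next and 0.884 between 35 and 40 Mb. The intervals overlapped in each of these comparisons. Overlapping intervals can still hide a difference beyond counting error, and no ratio between bins was tested.

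**Figure D2:**
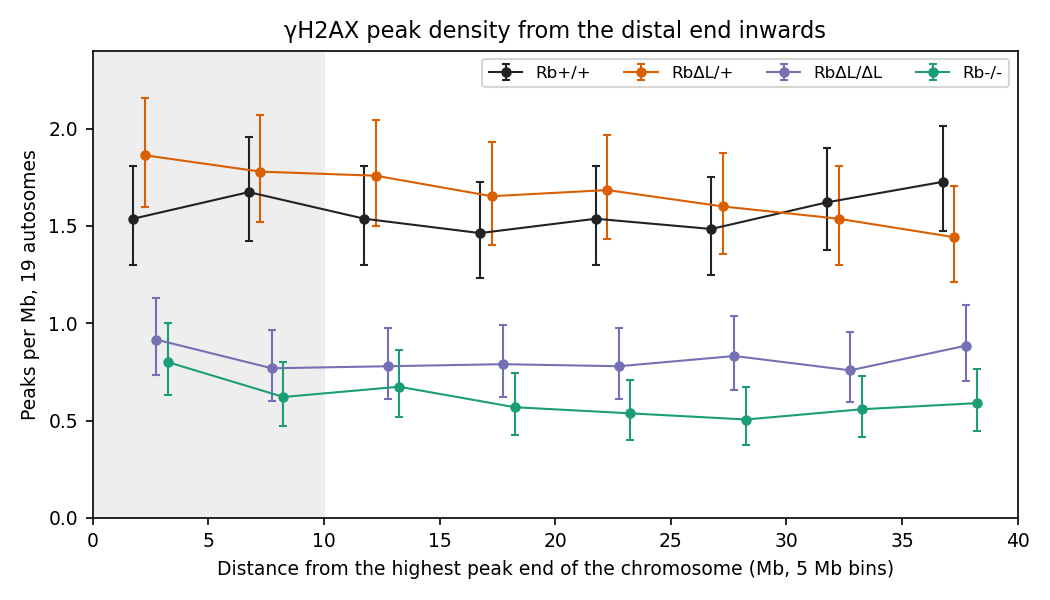
Peaks per Mb over the 19 autosomes (vertical axis) in bins of 5 Mb by distance from the highest peak end of the chromosome (horizontal axis, Mb), with points shifted sideways for legibility. Bars are 95% counting intervals and the shaded area marks the last 10 Mb. The RbΔL/+ line runs from 1.86 to 1.44 per Mb, the Rb+/+ line stays between 1.46 and 1.73, and the other libraries lie below 1.

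The last 1 Mb held 113 of the distal peaks, against 72 to 107 in each of the 9 other bins of 1 Mb. By the way the windows were drawn, 19 of those 113 are the peaks that define the ends. Without them 94 remained, close to the mean of 92.6 for the other bins. In RbΔL/+ the last 1 Mb had 45 peaks, or 2.37 per Mb (1.73 to 3.17), and 38 without the end-defining ones. Leaving out all 19 such peaks put the density ratio over 10 Mb at 1.18 (1.06 to 1.32) in RbΔL/+ and at 1.05 (0.933 to 1.18) in Rb+/+.

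The centromeric tips, measured the same way over the first 10 Mb of peak-bearing sequence, had 1.41 peaks per Mb for Rb+/+, 1.62 for RbΔL/+, 0.858 for RbΔL/ΔL and 0.679 for Rb-/-. The distal windows were denser than these in Rb+/+, RbΔL/+ and Rb-/- and slightly less dense in RbΔL/ΔL, and in each library the intervals of the 2 ends overlapped.

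Counts varied between the 19 windows, and the highest and lowest windows were not the same in all libraries. Of 76 intervals, 3 excluded the mean of their library, against up to 3.8 by counting error alone. Over the 4 lists together, the highest distal counts were on chromosomes 8, 16 and 19, with 65, 62 and 60 peaks. The lowest were on chromosomes 18, 17 and 2, with 34, 35 and 37 peaks, around a median of 51. Each window is 10 Mb long, so the densities run from 3.4 to 6.5 peaks per Mb summed over the lists. Chromosome 8 also stood highest relative to its own remainder, at 1.58 times the density there, and chromosome 18 lowest, at 0.737 times.

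On chromosome 8 the window held 14 peaks for Rb+/+, 28 for RbΔL/+, 13 for RbΔL/ΔL and 10 for Rb-/-. All 4 libraries were denser there than on the rest of the chromosome, with ratios of 1.04, 1.86, 1.83 and 1.85 in that order. Chromosomes 4, 7, 13 and 16 were likewise denser in their last 10 Mb in all 4 libraries. On chromosome 18 Rb+/+ had 19 peaks in the window and RbΔL/+ had 7, with 4 in each of RbΔL/ΔL and Rb-/-. Relative to the remainder of chromosome 18 this was 1.11 times in Rb+/+ and 0.430 times in RbΔL/+. Chromosome 17 was the only autosome on which none of the libraries was denser in the window than outside it, and Rb-/- had just 2 peaks there.

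Within a library the counts per window ran from 9 to 25 for Rb+/+ with a median of 16, from 7 to 28 for RbΔL/+ with a median of 18, from 4 to 15 for RbΔL/ΔL with a median of 7 and from 2 to 13 for Rb-/- with a median of 7. The window was denser than the rest of its chromosome on 13 of 19 autosomes for Rb+/+, 13 for RbΔL/+, 9 for RbΔL/ΔL and 11 for Rb-/-. Of the 76 windows, 3 had an interval that excluded the mean of their library, and 95% intervals would leave out up to 3.8 of 76 by counting error alone. The exact Poisson interval of the count lay above the mean for chromosome 19 in Rb+/+ (25 peaks, 1.62 to 3.69 per Mb) and for chromosome 8 in RbΔL/+ (28 peaks, 1.86 to 4.05 per Mb). It lay below the mean for chromosome 18 in RbΔL/+ (7 peaks, 0.281 to 1.44 per Mb), and for 0 windows in RbΔL/ΔL and Rb-/-. The variance of the counts was 1.44 times their mean for Rb+/+, 1.498 times for RbΔL/+, 1.06 times for RbΔL/ΔL and 1.28 times for Rb-/-, where independent placement at one rate would give a ratio near 1.

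**Figure D3:**
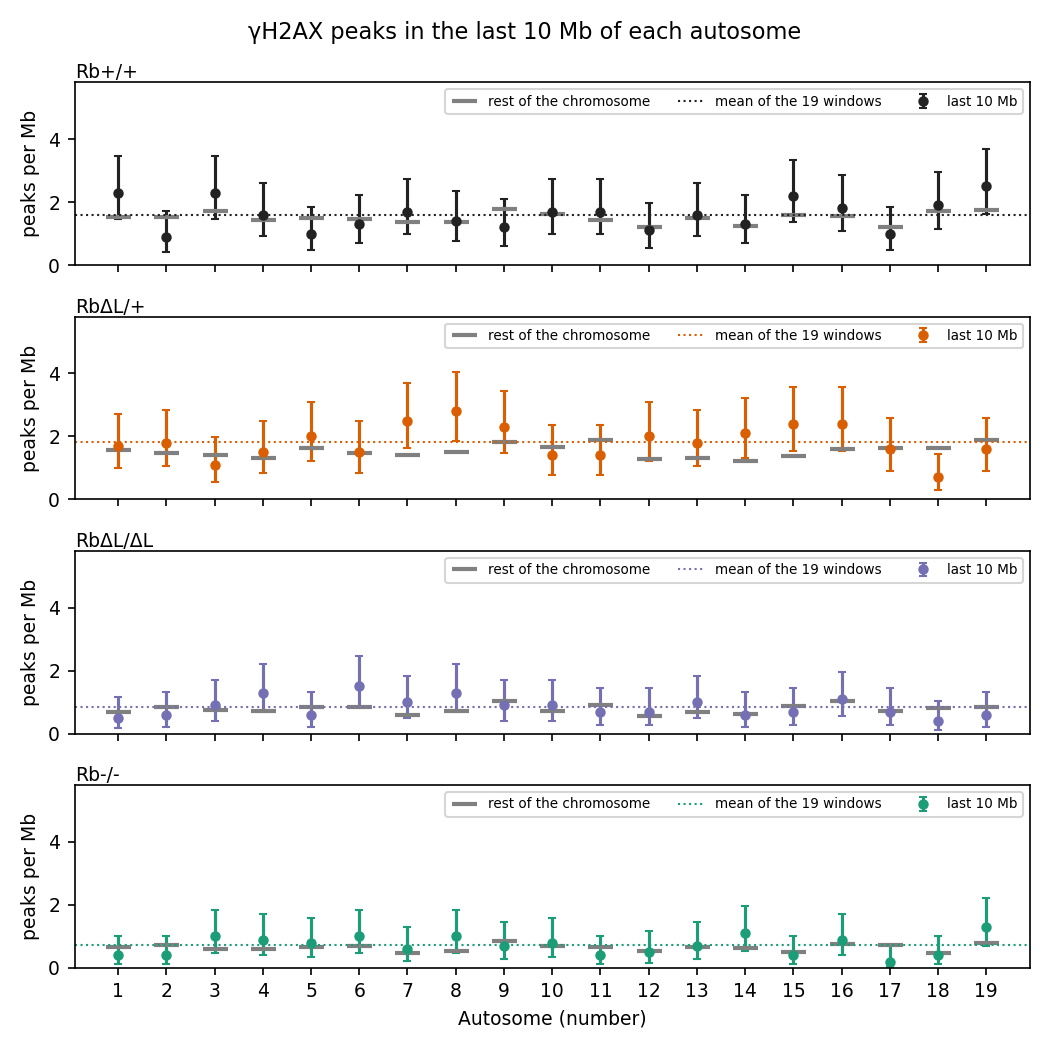
Distal γH2AX peaks per Mb on each autosome, with 1 panel per library. Points are the last 10 Mb with exact 95% Poisson intervals, grey dashes are the density on the rest of the same chromosome and dotted lines are the mean of the 19 windows. Chromosome 8 is the highest point in RbΔL/+ (2.8 per Mb), chromosome 18 the lowest (0.7 per Mb), and in Rb+/+ chromosome 19 is the highest (2.5 per Mb).

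In finer steps, the 190 windows of 1 Mb held a median of 5 peaks, and 4 windows were empty. The fullest was on chromosome 4 between 3 and 4 Mb from the end, where 14 peaks lay between 150642298 and 151597338 (mm9). Of these, 5 were from Rb+/+, 1 from RbΔL/+, 6 from RbΔL/ΔL and 2 from Rb-/-. The next were on chromosome 8 between 7 and 8 Mb from the end, with 13 peaks from 123550710 to 124468945, and on chromosome 16 between 5 and 6 Mb from the end, with 12 peaks from 92383400 to 93255591. The chromosome 8 window had 4, 6 and 3 peaks of Rb+/+, RbΔL/+ and RbΔL/ΔL and 0 of Rb-/-, and the chromosome 16 window had 4, 5, 2 and 1 in the order of the lists. All 4 libraries had a peak in 35 of the 190 windows. That count was not set against the rest of the autosomes or against independent placement, so it shows no shared location. These groups were loose, since few peaks of a library lay close to each other.

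Peaks of 1 library within 5000 bp of another peak of that library made up 1.97% of distal peaks for Rb+/+ (6 peaks), 2.31% for RbΔL/+ (8 peaks) and 1.25% for RbΔL/ΔL (2 peaks). In Rb-/- there were 0 of 135, which allows a share of up to 2.22%. On the rest of the autosomes the shares were 2.09%, 2.33%, 1.75% and 1.63%, inside the intervals of the distal values. The closest pair was in Rb+/+ on chromosome 4, where peaks at 149656785 to 149657207 and 149657960 to 149658508 were 752 bp apart. The next was in RbΔL/ΔL on the same chromosome, at 150907374 to 150907726 and 150908632 to 150908978, with a gap of 905 bp.

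Distal peaks were about as wide as other peaks of the same library. Their median width was 383 bp for Rb+/+ (358 to 410), 405 bp for RbΔL/+ (390 to 417), 323 bp for RbΔL/ΔL (312 to 329) and 364 bp for Rb-/- (321 to 393). On the rest of the autosomes the medians were 392, 408, 321 and 336 bp. The ratio of distal to other medians was above 1 in 2 libraries and below 1 in 2, and the exact two-sided sign-flip permutation test gave p = 0.875 against a smallest possible 0.13. Together the distal peaks covered 623 bp per Mb for Rb+/+, 714 for RbΔL/+, 268 for RbΔL/ΔL and 261 for Rb-/-, which is 1.05, 1.18, 1.06 and 1.12 times the coverage of the rest.

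The windows held none of the very wide or very high-scoring peaks of the lists. The widest distal peak was 724 bp, in RbΔL/+ on chromosome 16 at 91596162 to 91596885 (score 57.88). It was followed in that library by peaks of 679 bp on chromosome 19 at 57579529 to 57580207 and 581 bp on chromosome 11 at 119105600 to 119106180. In Rb+/+ the 3 widest measured 662, 659 and 655 bp, on chromosome 4 at 154296405 to 154297066, chromosome 17 at 85487907 to 85488565 and chromosome 11 at 119198050 to 119198704. Those of Rb-/- measured 591 and 584 bp on chromosome 16, at 92932326 to 92932916 and 88865431 to 88866014, and 586 bp on chromosome 3 at 153724590 to 153725175. Those of RbΔL/ΔL were narrower, at 513 bp on chromosome 5 (146474195 to 146474707), 455 bp on chromosome 9 (117686867 to 117687321) and 449 bp on chromosome 8 (129832727 to 129833175). Outside the windows the widest peaks reached 6116 bp for Rb+/+, 3897 bp for RbΔL/+, 3746 bp for RbΔL/ΔL and 2245 bp for Rb-/-. There were 28, 20, 16 and 20 peaks on the rest of the autosomes wider than the widest distal peak of the same library, or 0.847%, 0.598%, 0.933% and 1.42% of the peaks there. Over the 4 lists, 62 of the 9774 other peaks were wider than 724 bp. These limits are the widest distal peaks themselves, so the counts describe the lists and test no difference.

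The highest distal scores were 209.32 for Rb+/+, 159.44 for RbΔL/+, 100.42 for RbΔL/ΔL and 235.35 for Rb-/-, against 3100, 3100, 1372.33 and 3100 on the rest of the autosomes. Between 18 and 21 peaks per library scored higher outside the windows than the best distal peak, from 0.575% of peaks there in Rb+/+ to 1.28% in Rb-/-, a limit that the distal peaks again set themselves. The median distal score was 72.03 for Rb+/+, 64.1 for RbΔL/+, 58.9 for RbΔL/ΔL and 82.8 for Rb-/-, beside 72.03, 63.4, 59.6 and 96.4 elsewhere. The Rb-/- medians lay furthest apart, and their intervals, 82.2 to 99.7 for distal peaks and 90.7 to 99.9 for the others, overlapped.

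Scores of 100 or more were given to 70 distal peaks in Rb+/+ (23.0%, 18.4 to 28.1), beside 21.8% of all autosomal peaks of that library. In RbΔL/+ there were 9 such peaks (2.60%, 1.20 to 4.88) beside 4.25%, and in RbΔL/ΔL 1 (0.625%, 0.0158 to 3.43) beside 1.01%. In Rb-/- there were 54 (40%, 31.7 to 48.8) beside 46.5%. The share in each library was near that of its whole autosomal list. Against the rest alone, the distal share was higher by 1.28 percentage points in Rb+/+ and differed by -1.82, -0.425 and -7.13 points in RbΔL/+, RbΔL/ΔL and Rb-/-. The exact two-sided sign-flip permutation test over the 4 libraries gave p = 0.375, with 0.13 the smallest possible. Without Rb-/- the mean difference of -2.02 points was -0.323.

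High-scoring distal peaks were narrow. The median width of distal peaks with a score of at least 100 was 232 bp for Rb+/+, 199 bp for RbΔL/+ and 235 bp for Rb-/-, whereas that of distal peaks below it was 434, 408 and 439 bp. In RbΔL/ΔL the 1 such peak was 328 bp wide and the others had a median of 322 bp. All 57 distal peaks of Rb+/+ and all 32 of Rb-/- that were at most 250 bp wide scored at least 100, as did 6 of 19 in RbΔL/+ and 0 of 15 in RbΔL/ΔL. The limit of 250 bp was chosen after the widths were seen. On the rest of the autosomes 3 libraries had the same direction, with medians of 237, 217 and 239 bp at or above a score of 100 and 432.5, 410 and 443.5 bp below it in Rb+/+, RbΔL/+ and Rb-/-. In RbΔL/ΔL the direction there was the opposite, with 483.5 bp for the 18 peaks that reached 100 and 321 bp for the others. Of the other autosomal peaks of at most 250 bp, those that reached 100 were 478 of 496 for Rb+/+, 94 of 234 for RbΔL/+, 1 of 161 for RbΔL/ΔL and 393 of 393 for Rb-/-.

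**Figure D4:**
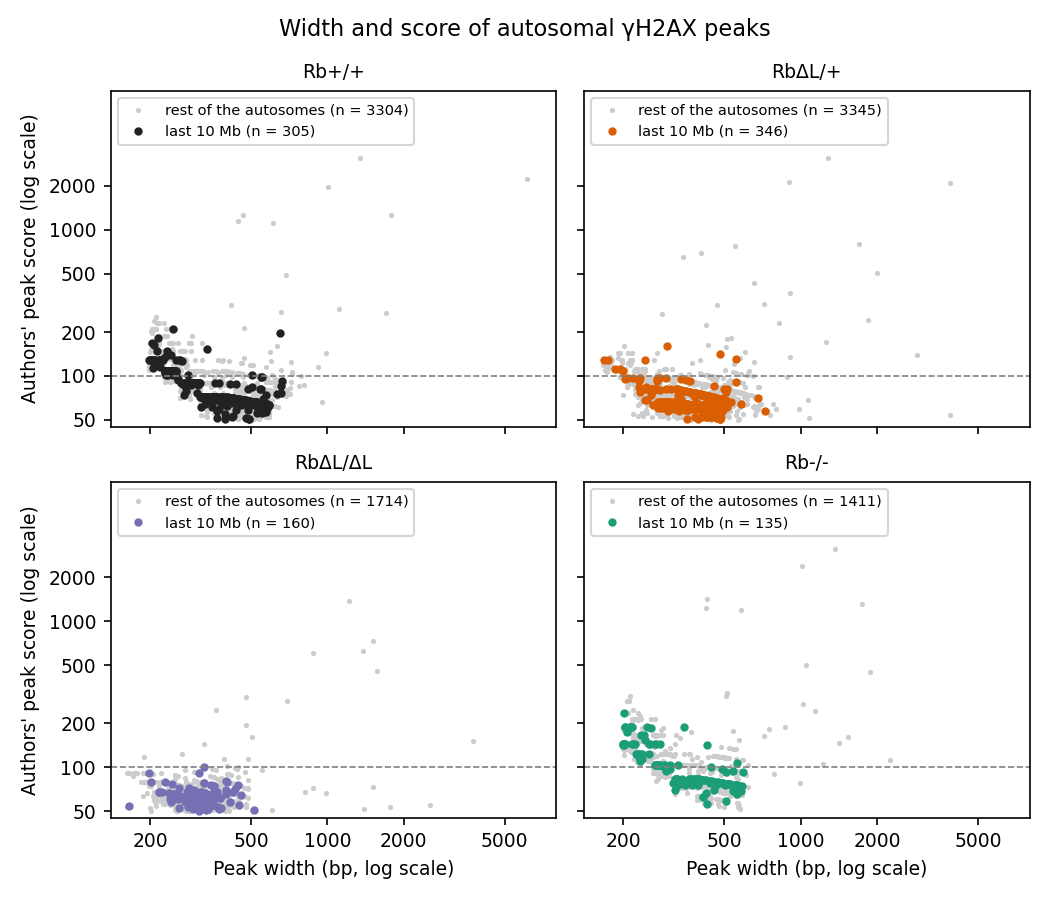
Width (bp, log scale) against the authors' score (log scale) for every autosomal peak, with 1 panel per library. Coloured points are the distal peaks, grey points the other autosomal peaks and the dashed line a score of 100. Distal points reach 724 bp and a score of 235.35, while grey points extend to 6116 bp and 3100. In Rb+/+ and Rb-/- all distal peaks of at most 250 bp lie on or above the dashed line.

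The strongest distal peak of the Rb+/+ list was on chromosome 12 at 114325607 to 114325852, 246 bp wide and of rank 21 in that list. Behind it came chromosome 5 at 147072424 to 147073074 (score 197.11), chromosome 6 at 144045968 to 144046182 (182.7), chromosome 5 at 150737388 to 150737591 (167.75) and chromosome 19 at 53981834 to 53982040 (163.72). Of these 5, only the peak on chromosome 5 of 651 bp overlapped a peak of another library.

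In RbΔL/+ the strongest distal peak was the very last peak of chromosome 19, at 61000490 to 61000786, with a score of 159.44 and rank 24. Next came chromosome 8 at 125826770 to 125827251 (141.7), chromosome 5 at 147072481 to 147073036 (131.25), and chromosome 6 at 142895627 to 142895794 and chromosome 11 at 112072300 to 112072542, which were among 3 distal peaks at a score of 128.09. The chromosome 5 peak was the one shared with Rb+/+.

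In Rb-/- the strongest was on chromosome 9 at 122144881 to 122145081, with a score of 235.35 and rank 19. Behind it, 7 distal peaks had an identical score of 189.43, among them chromosome 1 at 193489030 to 193489242, chromosome 4 at 151315565 to 151315812, chromosome 6 at 141017091 to 141017436 and chromosome 9 at 120503060 to 120503263. None of these 5 overlapped a peak of another library.

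In RbΔL/ΔL the strongest was on chromosome 13 at 115272508 to 115272835, with a score of 100.42 and rank 19. The next were chromosome 14 at 122035898 to 122036095 (91.54), chromosome 10 at 121980050 to 121980360 (91.12), chromosome 16 at 97024425 to 97024824 (79.98) and chromosome 2 at 172021107 to 172021509 (79.65). None overlapped a peak of another library.

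By called peaks, distal sites were almost entirely private to 1 library, as were sites on the rest of the autosomes. Reads of the other libraries at these sites were not examined, so private means only that no other list had a peak there. The number of overlaps under independent placement was not worked out. Merging overlaps turned the 946 peaks into 942 regions, and 938 of them (99.6%) came from 1 library, with 4 from 2. On the rest, 9624 of 9680 regions (99.4%) came from 1 library. Regions with peaks of 3 or 4 libraries numbered 0 of 942, which allows a share of up to 0.318%, while the rest of the autosomes had 20 of 9680 (0.207%, 0.126 to 0.319). The absence of such regions was therefore not a detectable difference at this number of peaks.

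Peaks that overlapped a peak of another library by at least 1 bp numbered 2 of the distal peaks in Rb+/+ (0.656%, 0.0795 to 2.35), beside 1.14% of all its autosomal peaks. In RbΔL/+ they numbered 3 (0.867%, 0.179 to 2.51) beside 1.44%, and in RbΔL/ΔL 2 (1.25%, 0.152 to 4.44) beside 1.87%. In Rb-/- there was 1 (0.741%, 0.0188 to 4.06) beside 1.88%. The distal share was lower than that of the rest in 4 of 4 libraries, by a mean difference of -0.768 percentage points. The exact two-sided sign-flip permutation test gave p = 0.13, the smallest possible here, and overlaps involve pairs of lists, so the 4 values are not independent of each other. When peaks within 1000 bp of each other were also counted, the mean difference was -0.271 points, with p = 0.375 in the same exact test. Among peaks scoring at least 100 it was -15.5 points, on distal peaks that numbered only 9 in RbΔL/+ and 1 in RbΔL/ΔL. Without chromosome 8 it was -1.40 points and without chromosome 9 -0.462 points, and the exact p was again 0.13 in these 3 cases. Each interval included the share on the rest of the autosomes, which was 1.18%, 1.49%, 1.93% and 1.98%.

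Of the 4 shared regions, 2 joined Rb+/+ and RbΔL/+ and 2 included RbΔL/ΔL. On chromosome 5 a region of 651 bp at 147072424 to 147073074 held a peak of Rb+/+ (score 197.11, rank 34) and one of RbΔL/+ (score 131.25, rank 43). It lay 5.45 Mb from the end and was among the 3 strongest distal sites of both lists. On chromosome 9 a region of 349 bp at 123370959 to 123371307, only 0.527 Mb from the end, joined the same genotypes. The peaks there were 337 and 338 bp wide and overlapped by 326 bp, but their standing differed, with a score of 152.26 and rank 108 in Rb+/+ and a score of 69.07 and rank 1272 in RbΔL/+.

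Both other shared regions were on chromosome 8 and included RbΔL/ΔL. At 125991315 to 125991889 a peak of RbΔL/+ (score 57.05, rank 3212) met one of RbΔL/ΔL (score 66.11, rank 445) over 139 bp. At 130236516 to 130237036 a peak of RbΔL/ΔL (score 51.98, rank 1894) lay within one of Rb-/- (score 76.69, rank 1272). The RbΔL/ΔL peak of rank 445 stood highest of these 4 peaks, and the other 3 ranked 1272 or lower. Ranks are places in whole lists of unlike length, with tied peaks given the best place. The lists held 3789 peaks for RbΔL/+, 1976 for RbΔL/ΔL and 1632 for Rb-/-, so equal ranks are not equal standing. Annotation of the genes in the build mm9 was not used here, so the regions are named by position. Input reads at these positions were not examined, and shared γH2AX cannot be told apart from sites that collect reads whatever the library.

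The ends of the autosomes were set by 7 peaks of Rb+/+, 7 of RbΔL/+, 3 of RbΔL/ΔL and 2 of Rb-/-, and none of these 19 overlapped a peak of another library. Rb+/+ had the last peak on chromosomes 1 (196800599 to 196800940), 3 (159179913 to 159180152), 6 (149410069 to 149410274), 10 (129710021 to 129710378), 14 (125073055 to 125073263), 17 (94958196 to 94958529) and 18 (90731811 to 90732394). RbΔL/+ had it on chromosomes 2 (181663753 to 181664199), 4 (154633548 to 154633838), 7 (152464936 to 152465376), 11 (121612125 to 121612572), 15 (103239090 to 103239551), 16 (98297863 to 98298338) and 19. RbΔL/ΔL had it on chromosomes 8 (131508056 to 131508384), 12 (121166774 to 121167086) and 13 (119731224 to 119731554), and Rb-/- on chromosomes 5 (152524345 to 152524737) and 9 (123898236 to 123898690). Their scores ran from 55.81 on chromosome 13 to 159.44 on chromosome 19, and only the latter ranked among the 100 highest of its list.

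At the limit of the windows, the outermost peaks counted as distal were on chromosome 15 at 93246467 (9992700 bp from the end, score 63.92, Rb+/+) and chromosome 9 at 113908521 (9989939 bp, score 123.76, Rb-/-). The first peaks left out were on chromosome 13 at 109730356 (10000886 bp, score 57.58) and chromosome 15 at 93233254 (10005890 bp, score 50.58), both of RbΔL/ΔL.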

How the data were processed

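The authors deposited 1 list of peaks per ChIP library with a score for each peak, and read counts per repeat class that were used for depth only. Per the submitters' processing notes, the software was Bowtie 1.0 and MACS 1.4.2 and the build mm9, with roles and order left out. The peak names are those MACS writes, and the score is read as its p-based score, although no header says so. For the control library and the p threshold used in calling, a statement is not given in the sources used here. Such a score moves with library depth.

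Density is peaks per Mb between the lowest and highest peak coordinate of each autosome over the 4 lists. Shares have exact (Clopper-Pearson) 95% intervals, counts exact Poisson intervals, ratios intervals on the log ratio and medians order-statistic intervals. Where 0 were counted, up to 3 were taken as possible. Starts are written from 1. Scripts were tested on simulated data. Values came from pandas 2.3.3 and scipy 1.17.1 with numpy 2.4.6 under Python 3.11.15, figures from matplotlib 3.10.9.

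The members and the settings were chosen with earlier results of these data known. Named positions follow a rule: the 5 highest-scoring and 3 widest distal peaks per library, shared regions, last peaks, and the 3 highest and lowest chromosomes and 3 fullest windows of 1 Mb. Close pairs and peaks at the limit were added after their values were seen. Alternatives were other windows, ends, backgrounds, scores, merging and overlaps. No genome or gene annotation of mm9 was used, and satellite counts were left out.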

Additional observations from a re-analysis of the deposited data

How the results depend on the processing

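Across 595 recalculations of 23 results, 577 stayed inside the counting interval of the reported value or, for means over libraries, kept their direction. Most of the 595 left out 1 of the 19 autosomes and kept nearly all peaks, so this count says little about the other settings. Ratios that crossed 1 inside an interval that includes 1 are among these 577. An example is the RbΔL/ΔL distal share relative to Rb+/+, which was 1.01 and became 0.966 without chromosome 6. Most of the recalculations outside these 577 came from peaks with a score of at least 100. There the density ratio was 0.708 for RbΔL/+ and 0.647 for RbΔL/ΔL, with a geometric mean over libraries of 0.838. The distal share relative to Rb+/+ was 0.644 for RbΔL/+ (9 distal peaks), 0.591 for RbΔL/ΔL (1 distal peak) and 0.843 for Rb-/-. A score of 100 kept 21.8% of the autosomal peaks of Rb+/+, 4.25% of RbΔL/+, 1.01% of RbΔL/ΔL and 46.5% of Rb-/-. These relative shares thus compare unlike parts of the lists and show no difference between genotypes. The median distal width became 232 bp for Rb+/+, 199 bp for RbΔL/+ and 235 bp for Rb-/-, and the mean ratio of widths 0.880. The share overlapping another library became 11.1% for RbΔL/+, on 9 peaks, and 0% for RbΔL/ΔL and Rb-/-. The mean ratio of widths of 1.01 also turned to 0.998 with windows of 20 Mb and to 0.992 without the Rb-/- library, and its range without each library was 0.992 to 1.03. The mean distal minus rest share scoring at least 100, -2.02 points, was -0.876 with windows of 5 Mb, and that for overlap was -15.5 points among peaks of that score. Leaving out each autosome in turn kept the RbΔL/+ density ratio between 1.17 (without chromosome 8) and 1.25, with its interval above 1 each time. For shares on 1 or 2 peaks it mattered, from 0% to 0.690% for scores of at least 100 in RbΔL/ΔL (0% without chromosome 13), and for overlap from 0% to 1.38% for RbΔL/ΔL and 0% to 0.820% for Rb-/- (0% without chromosome 8). The cause of these changes was not tested. No paired analysis was possible because each genotype had 1 library and the labels carry no replicate numbers. With the end set by each library and all peaks counted, 19 peaks per library are distal by construction, and the mean density ratio was 1.22, beside 1.12 without them. The alternatives that leave out end-defining peaks or a library were added after seeing the data.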

Other observations

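The distance from the last peak of a library to the end set by the 4 lists had a median over autosomes of 0.192 Mb for RbΔL/+, 0.337 Mb for Rb+/+, 0.706 Mb for RbΔL/ΔL and 0.970 Mb for Rb-/-, an order that follows the number of peaks in the windows. The longest such stretch of each library was 4.91 Mb for Rb-/- on chromosome 17, 3.95 Mb for RbΔL/+ on chromosome 6, 3.84 Mb for RbΔL/ΔL on chromosome 15 and 2.39 Mb for Rb+/+ on chromosome 8.

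Distal peaks often carried exactly the same score. A score of 72.03 was held by 31 of 305 distal peaks of Rb+/+ (10.2%), with widths from 316 to 391 bp, and 66.39 by 22 of 346 of RbΔL/+ (6.36%). In Rb-/- a score of 82.8 was held by 14 of 135 (10.4%), a number that another score matched. In RbΔL/ΔL the commonest score was held by only 6 of 160 (3.75%). The same scores of 72.03 and 66.39 were the commonest on the rest of the autosomes in Rb+/+ and RbΔL/+, at 11.2% and 5.71% of peaks.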
